A study of Mus musculus with 2 samples.

Results

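The 33 genes examined here encode the folding and quality control machinery of the endoplasmic reticulum (ER), and all 33 of them were found among the 36400 gene names on the array. They were chosen by function, as chaperones, stress sensors, and degradation and translocation genes, by matching the gene name of non-control probes. The cells were neural stem and progenitor cells (NSPCs) derived from mouse ES (embryonic stem) cells and cultured as neurospheres to passage 2, for 18 days from the embryoid body stage. The control group was cells labelled control OE (overexpression), and the miR-153 group was cells that overexpressed the microRNA miR-153. Each group had 1 array, both groups shared the culture above, and the labels name no other treatment, genotype or strain. The vector or method of overexpression, and any control sequence, are not given in the sources used here. With 1 array in each group, nothing below has a replicate check and there is no test.

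Secreted and membrane proteins enter the ER through the Sec61 channel, are folded by chaperones of the Hsp70 and Hsp90 families, and receive disulfide bonds from protein disulfide isomerases that are themselves reoxidised by Ero1 oxidases. Proteins that do not fold are pulled back to the cytosol and degraded, which is called ER-associated degradation. When unfolded protein accumulates, the sensors ATF6, IRE1 and PERK start the unfolded protein response, in which ATF6 and XBP1 switch on chaperone and degradation genes and PERK slows translation and raises ATF4. Neural progenitors pass through this system large amounts of receptors, adhesion molecules and matrix.

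miR-153 has mature strands from both arms of its hairpin, which lies on chromosome 12, and the labels do not say which arm was intended. Both are shown because miR-153 was the agent overexpressed, with the seed, bases 2 to 8, in capitals (RefSeq, GRCm38.p6).
miR-153-5p (chr12:117250821-117250843, plus strand): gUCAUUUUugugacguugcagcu
miR-153-3p (chr12:117250860-117250881, plus strand): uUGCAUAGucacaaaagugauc
No probe name on the array matched miR-153, so its overexpression was not checked here.

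ATF6 and its partners bind the ER stress element (ERSE), CCAAT and CCACG separated by 9 bases. Promoter windows, 250 bases before to 50 after the annotated start, were found in RefSeq (GRCm38.p6) for 28 of the 33 genes; Hyou1, Manf, Atf6, Derl1 and Sec61a1 had no entry. The ERSE, searched on both strands, was present in 10 of the 28 (35.7%) against 37 of all 27025 genes with a window (0.137%). It is printed for each of the 10 genes because it was far more frequent in these promoters than in all promoters. The genes were chosen by function and include chaperone genes that ATF6 switches on, so this excess is a description and not a test. Each line reads 5′ to 3′ on the strand that holds CCAAT first, with 12 bases on either side and the fixed bases in capitals.
Hspa5 (chr2:34772013-34772055, plus strand): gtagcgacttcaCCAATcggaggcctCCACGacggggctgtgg
Hsp90b1 (chr10:86705626-86705668, minus strand): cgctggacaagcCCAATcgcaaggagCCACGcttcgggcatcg
Hsp90b1 (chr10:86705521-86705563, plus strand): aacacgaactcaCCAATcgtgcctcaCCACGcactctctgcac
Dnajc3 (chr14:118937815-118937857, plus strand): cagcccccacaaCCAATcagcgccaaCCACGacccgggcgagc
Calr (chr8:84847063-84847105, plus strand): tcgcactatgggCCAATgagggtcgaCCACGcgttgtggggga
Canx (chr11:50325788-50325830, minus strand): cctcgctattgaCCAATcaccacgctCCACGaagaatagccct
Pdia6 (chr12:17266479-17266521, plus strand): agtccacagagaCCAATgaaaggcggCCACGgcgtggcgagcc
Creld2 (chr15:88819508-88819550, minus strand): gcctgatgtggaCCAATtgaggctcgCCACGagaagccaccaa
Ero1lb (chr13:12565670-12565712, minus strand): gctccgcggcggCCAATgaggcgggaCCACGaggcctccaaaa
Syvn1 (chr19:6046520-6046562, plus strand): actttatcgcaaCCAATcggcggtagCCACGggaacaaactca
Derl3 (chr10:75893230-75893272, minus strand): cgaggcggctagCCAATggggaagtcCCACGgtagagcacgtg

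In the Hspa5 promoter 46 bases lay between the element and the annotated start, and in the Syvn1 promoter 25. Hsp90b1 held it in both orientations, with 193 and 88 bases to the start. A second form, ERSE-II (ATTGG and CCACG separated by 1 base), was present in Herpud1 and Dnajb11, 2 of 28 against 12 of all 27025 genes (0.0444%). The Herpud1 element is shown because it also contains the XBP1 core ACGTGG, which overlaps it on the opposite strand.
Herpud1 (chr8:94386365-94386399, plus strand): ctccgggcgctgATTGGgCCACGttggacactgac

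The XBP1 core ACGTGG was present in 8 of 28 promoters (28.6%), against 9.40% of all genes. The hypoxia element ACGTGC was present in 3 of 28 (10.7%), against 6.68% of all genes. The 3 were Dnajb9, Derl3 and Ero1l, and the Ero1l match is shown because Ero1l had the largest difference of the 33 genes.
Ero1l (chr14:45318619-45318648, plus strand): cctcccctgcggACGTGCagcggcgcgcgc
A match of letters is a description and does not show that a factor bound there.

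Each array had 59305 non-control spots, of which the image software marked 52.5% (control) and 55.6% (miR-153) as well above background and none as saturated. Both arrays lay on 1 slide and were scanned together. The 33 genes were covered by 43 probes, 42 of them well above background on both arrays, so that all 33 genes were measured on both. A level below is log2 of the background-subtracted signal relative to the 75th percentile over spots of the same array, and a difference is the level on the miR-153 array minus that on the control array. For a gene with several probes the brightest was used. The image software's own error for a difference was between 0.20 and 0.32 on this log2 scale for these probes. Different probes of 1 gene differed by more, with a pooled standard deviation (SD) of 0.47 over 5025 genes. In bulk RNA, fewer cells of a type and less RNA per cell cannot be told apart.

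Most of the ER genes were modestly lower with miR-153. Of the 33, 27 (81.8%) lay below 0 and 6 above, with a median difference of -0.45. Over all 20435 gene names measured on both arrays, 56.1% lay below 0 and the median was -0.11. At least 2-fold lower were 5 of the 33 (15.2%), against 11.0% of all gene names, and at least 2-fold higher were 0 of 33, against 9.23% of all gene names. The differences were thus mostly smaller than 2-fold. The 5 past it were Ero1l, Derl3, Manf, Edem1 and Pdia5. The differences of 29 of the 33 genes were larger than the software error. Those of 18 exceeded the SD between probes, 16 of them below 0 and 2 above (Ero1lb and Edem2). The share of all gene names past either size was not counted, so these counts show nothing particular to the ER genes.

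**Figure D1:**
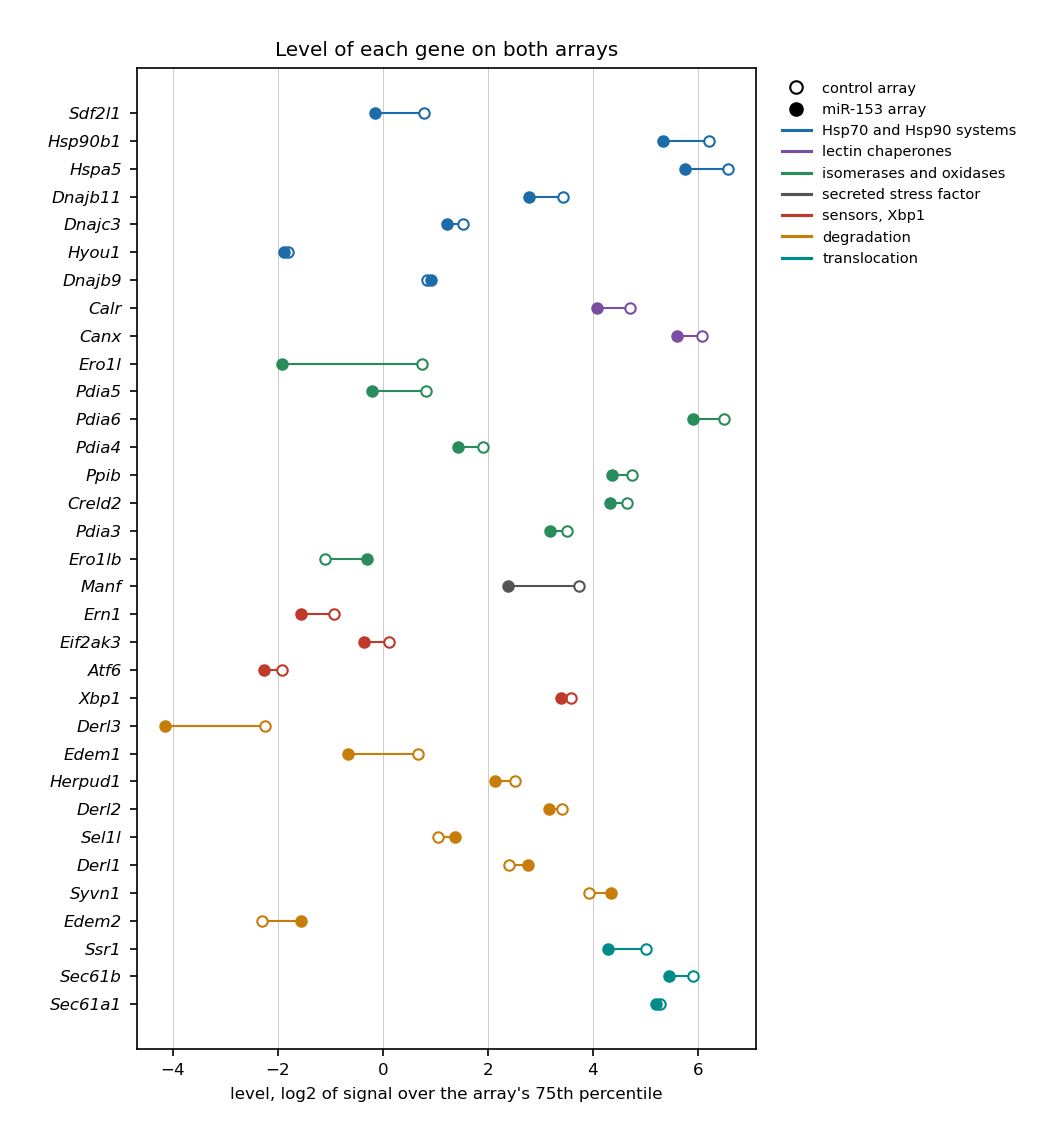
Level of the 33 genes on the control array (open circles) and the miR-153 array (filled circles), as log2 of signal over the array's 75th percentile, grouped by role. The filled circle lies left of the open one for 27 genes, and the longest line is that of Ero1l, from 0.75 to -1.91.

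The Hsp70 and Hsp90 chaperone systems had 6 of 7 genes below 0, with a median of -0.64 and none past 2-fold. Hspa5, which encodes BiP, the main Hsp70 of the ER lumen, had a level of 6.57 in the control and 5.76 with miR-153, 1.76-fold lower. Hsp90b1, the ER form of Hsp90, had levels of 6.21 and 5.34, 1.83-fold lower. Both hold the ERSE, whose holders among the 33 ranged from -1.92 to 0.81, and its part in their levels was not tested. The differences of Hspa5 and Hsp90b1, -0.81 and -0.87, lay closer together than the software error. Quantile normalization put them at -0.28 and -0.43, and lowess on mean level at -0.36 and -0.46. Sdf2l1, a partner of the BiP cochaperones, had levels of 0.78 and -0.14 and was the nearest of all 33 to the 2-fold line on its inner side, at -0.92. The cochaperones of the DnaJ family, which stimulate the ATPase of BiP, were spread. Dnajb11 (ERdj3) had levels of 3.43 and 2.79, a difference of -0.64, and its other probe was not well above background on either array. Dnajc3 (p58IPK) had levels of 1.53 and 1.23. Dnajb9 (ERdj4), a target of XBP1, had levels of 0.84 and 0.92, within the software error, while its dimmer probe differed by 0.51. Hyou1, a nucleotide exchange factor for BiP, had levels of -1.81 and -1.88, also within that error.

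Calr and Canx encode calreticulin and calnexin, the lectins that hold glycoproteins during folding. Calr had levels of 4.70 (control) and 4.08 (miR-153). Canx had levels of 6.07 and 5.59. Both genes were lower with miR-153, with log2 differences of -0.62 and -0.48. Under quantile normalization the value of Canx was -0.01 and that of Pdia6, described next, was -0.04.

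Disulfide and proline isomerases with their oxidases held the widest range, from -2.66 to 0.81. Ero1l, the oxidase that recharges protein disulfide isomerase and a known target of the hypoxia factor HIF, had levels of 0.75 and -1.91 (chromosome 14, 45904192 to 45904251, mm9). That was 6.32-fold lower, and -2.16 with normexp background correction. Its paralogue Ero1lb, which is best known from the pancreas, went the other way, with levels of -1.10 and -0.29 and a difference of 0.81 (chromosome 13, 12701235 to 12701294, mm9). It was the highest of the 33, and under spike-in scaling it stood at 1.05, past 2-fold. Each of these genes had 1 probe.

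Of the isomerases themselves, Pdia5 was just past the 2-fold line. Its levels were 0.82 and -0.21, a difference of -1.03, which came to -0.92 with normexp and -0.79 under spike-in scaling. Pdia6, an isomerase that acts with BiP, had levels of 6.50 and 5.91, and its second probe gave -0.26 against -0.59. Pdia4 had levels of 1.91 and 1.43, and Pdia3, the partner of the lectins, 3.50 and 3.18. Ppib, the ER cyclophilin that isomerises proline bonds, had levels of 4.74 and 4.37. These 4 genes thus lay between -0.59 and -0.32. Creld2, a stress-induced protein with disulfide exchange activity, was printed in 10 spots on each array. Its level was 4.65 ± 0.047 (SD, n = 10 spots) in the control and 4.32 ± 0.051 (SD, n = 10 spots) with miR-153. The differences of the 10 spots ran from -0.43 to -0.26, so no spot reached 0, although these spots repeat 1 RNA sample on each array and say nothing of other cultures. Manf, a secreted neurotrophic protein that is retained in the ER until stress, had levels of 3.73 and 2.38 on a probe at chromosome 9, 106791278 to 106791337 (mm9). It was 2.55-fold lower and kept to at least 2-fold under every alternative, with a range of -1.35 to -1.11.

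The genes of all 3 sensors and of Xbp1 lay below 0. Ern1, encoding IRE1, had levels of -0.93 and -1.56, and Eif2ak3, encoding PERK, 0.13 and -0.36. Atf6 had levels of -1.91 and -2.27. Xbp1, whose messenger RNA is spliced by IRE1, had levels of 3.58 and 3.40, within the software error, and turned to 0.06 under spike-in scaling. None of the 4 passed 2-fold, and 1 probe for Xbp1 does not separate the spliced from the unspliced form.

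Degradation genes were divided, with 4 of 8 above 0, 4 below and a median of 0.03. Edem1 and Edem2 encode lectins that trim or pick out misfolded glycoproteins, and they went opposite ways. Edem1 had levels of 0.68 and -0.66, 2.52-fold lower (chromosome 6, 108808920 to 108808979, mm9). Edem2 had levels of -2.30 and -1.55, 1.68-fold higher (chromosome 2, 155534678 to 155534737, mm9). Among the derlins, channel components of the degradation route, Derl3 had levels of -2.23 and -4.15, 3.78-fold lower (chromosome 10, 75358503 to 75358562, mm9). Derl3 was dim on the miR-153 array, with a background-subtracted signal of 30.9 intensity units beside a median background of 41.5 there, and normexp put its difference at -1.05. Derl1 and Derl2 had probes of both signs. Those of Derl1 gave 0.35 and -0.25, and those of Derl2 gave -0.25, -0.06 and 0.30.

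The ubiquitin ligase of the pathway and its scaffold were above 0. Syvn1, encoding the ligase HRD1, had levels of 3.92 and 4.34, a difference of 0.42. Sel1l, its adaptor, had levels of 1.06 and 1.38, a difference of 0.32. Herpud1, a stress-induced partner of the same complex, had levels of 2.53 and 2.13 and so lay below 0. Syvn1 was the only one of the 11 genes in the brightest eighth of all levels to lie above 0 in the main setting.

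The 3 translocation genes lay below 0. Sec61a1, the pore subunit of the channel, had levels of 5.28 and 5.20, within the software error. Its sign turned under 3 alternatives, to 0.22 with quantile normalization, 0.16 with spike-in scaling and 0.26 with lowess. Sec61b, the small subunit, had levels of 5.90 and 5.45, and its other probes gave -0.59 and 0.00. Ssr1, a subunit of the translocon-associated protein complex, had levels of 5.02 and 4.29, and its other probes disagreed, at -0.57 and 0.43. Of the 6 genes with more than 1 probe measured on both arrays, 4 had probes of both signs, these being Derl1, Derl2, Sec61b and Ssr1. For Sec61b the probe above 0 was within the software error, at 0.00, so its sign shows no disagreement.

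**Figure D2:**
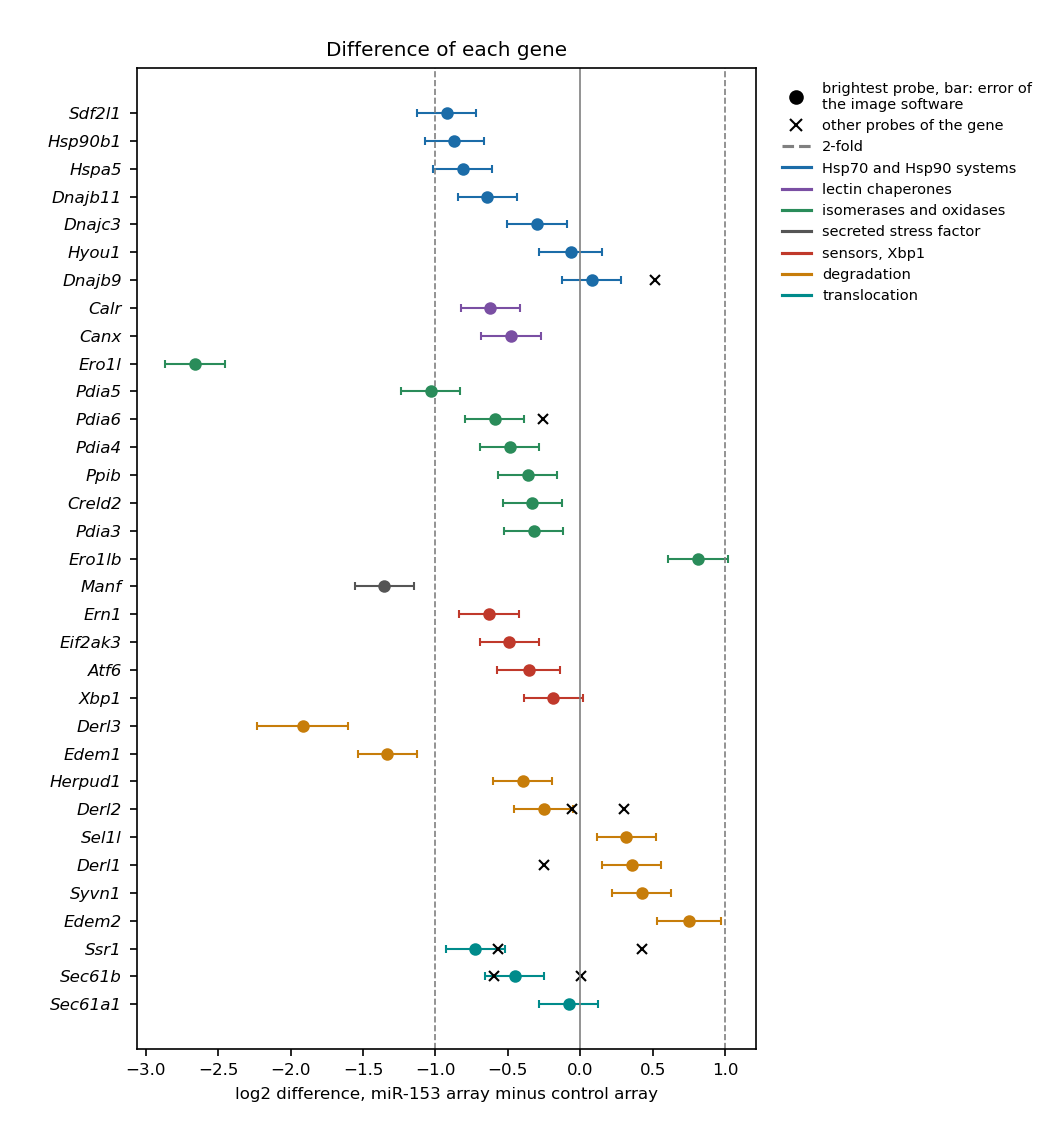
Log2 difference of the 33 genes (miR-153 array minus control array) by role. Dots are the brightest probe with the image software's error, crosses are other probes of the same gene measured on both arrays, and dashed lines mark 2-fold. Ero1l (-2.66), Derl3 (-1.92), Manf (-1.35), Edem1 (-1.33) and Pdia5 (-1.03) lie beyond the left line, and none lies beyond the right.

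Bright genes in general were lower with miR-153, and 11 of the 33 fell in the brightest eighth of measured gene names. There the median of all 2555 names was -0.43 and that of the 11 was -0.48. Of all names in that eighth, 75.5% lay below 0, as did 10 of the 11 ER genes. At least 2-fold lower were 10.1% of names in that eighth and 0 of the 11, and at least 2-fold higher were 2.15% of names and 0 of the 11. The median of the 11 was thus near that of other bright genes. Of the 11, only Hspa5 and Hsp90b1 lay below the lower quartile of that eighth, which was -0.74. A fixed share of all names lies below a quartile by definition, so this does not set these genes apart. The 5 genes past 2-fold came from dimmer bins, with 3 of them (Ero1l, Edem1 and Pdia5) in the fourth eighth, where the median of all names was -0.00 and that of the 6 ER genes was -0.98. After lowess on mean level the median of the 33 was -0.31 against -0.01 for all names, and 5 genes were past 2-fold.

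**Figure D3:**
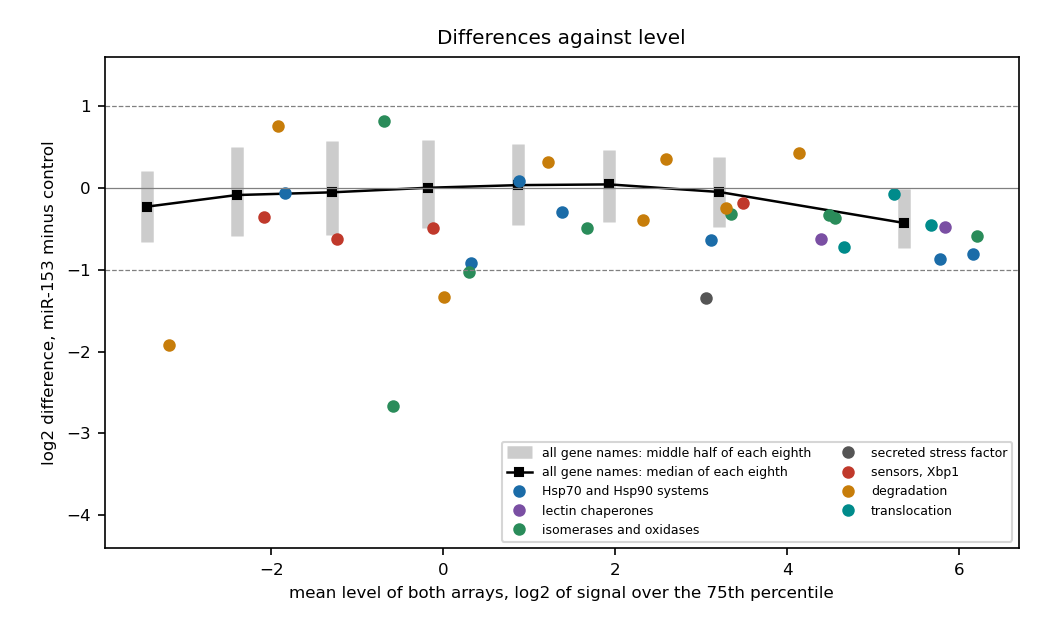
Log2 difference against mean level for the 33 genes (coloured by role), with the median (squares) and the quartile range (grey bars) of all gene names in each eighth of level. The squares lie at -0.23 in the dimmest eighth, between -0.09 and 0.04 in the next 6, and at -0.43 in the brightest, where 11 of the 33 genes lie.

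Differences of genes with and without the ERSE overlapped. The 10 genes with an ERSE had a median of -0.53 and a range of -1.92 to 0.81, with 8 below 0. The 18 with a promoter but no ERSE had a median of -0.47 and a range of -2.66 to 0.75, with 15 below 0. Ero1lb and Syvn1, whose elements are printed, were the 2 holders above 0. Of the 27 other genes whose window held the ERSE, 7 were measured on both arrays, with a median of -0.64 and 5 below 0. Ero1l and Derl3, the genes with the largest differences, both held the hypoxia element, and Dnajb9, at 0.08, held it too.

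**Figure D4:**
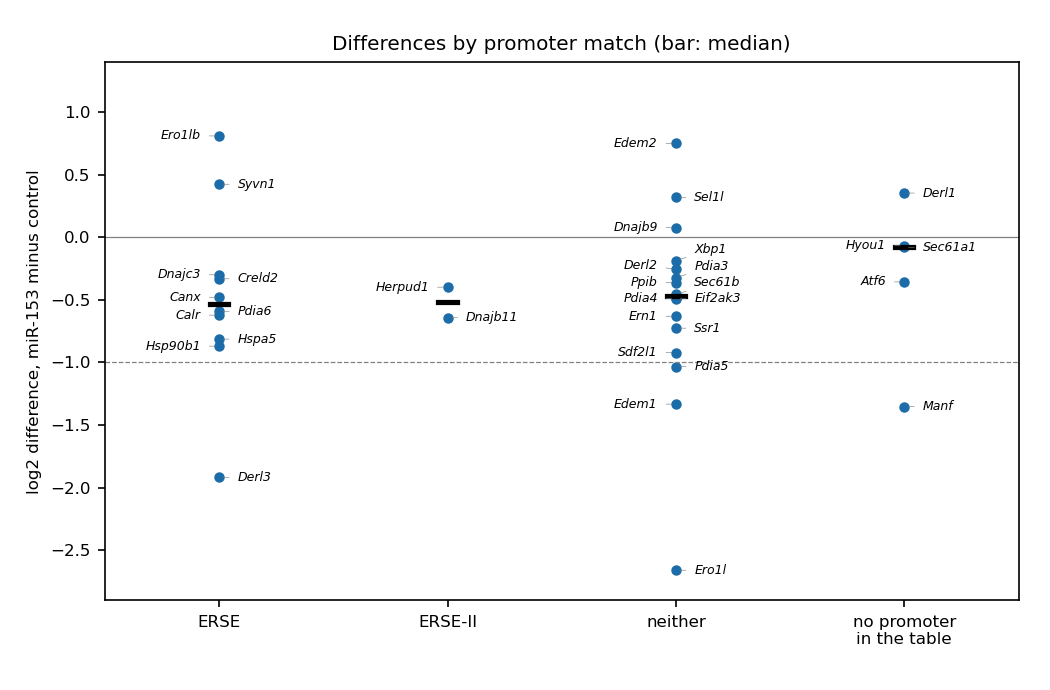
Log2 difference of the 33 genes by promoter match: ERSE (10 genes), ERSE-II (2), neither (16) and no promoter in the table (5). Each dot is a gene and the bar is the median, which was -0.53 for the ERSE, -0.52 for ERSE-II, -0.47 for neither and -0.08 for genes without an entry.

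Related genes, taken from 10 lists, are given for comparison. The PERK branch and its targets had 9 of 16 genes at least 2-fold lower and none higher, all 16 below 0, with a median of -1.35. Its lowest members were Stc2 (-3.79), a secreted glycoprotein gene, Trib3 (-3.53), a pseudokinase that restrains ATF4, Atf3 (-2.86), a stress transcription factor, and Chac1 (-2.35), which degrades glutathione. Stc2 was dim on the miR-153 array, at a level of -4.45, where the lowest level well above background was -4.94. The size of its difference is therefore uncertain. Chosen after their values were seen, Atf4 itself stood at 6.62 and 5.78, a difference of -0.84, and Ddit3, encoding CHOP, at 1.29 and -0.31, a difference of -1.60. Ddit4 (-2.32), chosen likewise, stands in both this list and the hypoxia list. Several of these genes also answer to shortage of amino acids or oxygen.

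Factors that process or resemble the sensors, listed with other related genes, had 2 of 12 lower and none higher, with a median of -0.30. The lower count was 1 under normexp and under spike-in scaling. The lower ones were Bbc3 (-1.38), a cell death gene also driven by p53, and Creb3l1 (-1.11), an ER-anchored transcription factor related to ATF6. The oligosaccharyltransferase, which attaches sugar chains to proteins entering the ER, had 10 of 11 subunits below 0 and none past 2-fold in either direction (1 lower with the mean of probes), with a median of -0.58. Other translocation and signal peptidase genes had 1 of 23 lower, the peptidase gene Sec11c (-1.12), none higher and a median of -0.38. The count fell to 0 under normexp and under spike-in scaling. Genes of the glycoprotein folding cycle had 1 of 10 lower, the lectin gene Mlec (-1.32), none higher and a median of -0.11, equal to that of all gene names.

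Other oxidoreductases and isomerases went both ways, with 4 of 20 lower, 2 higher and a median of -0.15. Ppic (-1.66), a cyclophilin gene, Prdx4 (-1.54), an ER peroxiredoxin gene, and the proline isomerase genes Fkbp10 (-1.28) and Fkbp7 (-1.27) were lower. Tmx4, with levels of 1.83 and 2.97, and Gpx8, with levels of 1.89 and 2.89, were at least 2-fold higher and were named after their values were seen. Other degradation genes had 3 of 21 higher, 1 lower and a median of 0.08. The higher ones were Rnf5 (1.27), a ubiquitin ligase gene, Os9 (1.21), a lectin of the HRD1 complex, and Ngly1 (1.01), which removes sugar chains. Ngly1 was dim in the control, at a level of -4.17, where the lowest level well above background was -4.34. The count of higher genes was 2 under normexp and 4 under spike-in scaling. The lower one was Ube2j1 (-1.18), the conjugating enzyme of the same route. The call of Ube2j1 was lost, leaving 0 lower, under spike-in scaling and with the mean of probes.

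Export from the ER had 2 of 19 lower, near the share of all gene names, and none higher, with a median of -0.15. Kdelr3 (-2.13), a receptor that returns escaped chaperones to the ER, and Sec24d (-1.46), a coat protein gene, were the lower ones. Cytosolic and mitochondrial chaperones had 3 of 21 lower, none higher and a median of -0.53. That median was -0.19 under quantile normalization and -0.16 under lowess, and the brightest eighth of all names had -0.43. Hspb1 (-2.18), Hspa1a (-2.15) and Hspd1 (-1.02) were the lower ones, with Hspd1 nearest the line. The count was 2 under normexp, quantile normalization, spike-in scaling and lowess. Hspa1a has a near-identical neighbour gene that its probe may not tell apart.

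**Figure D5:**
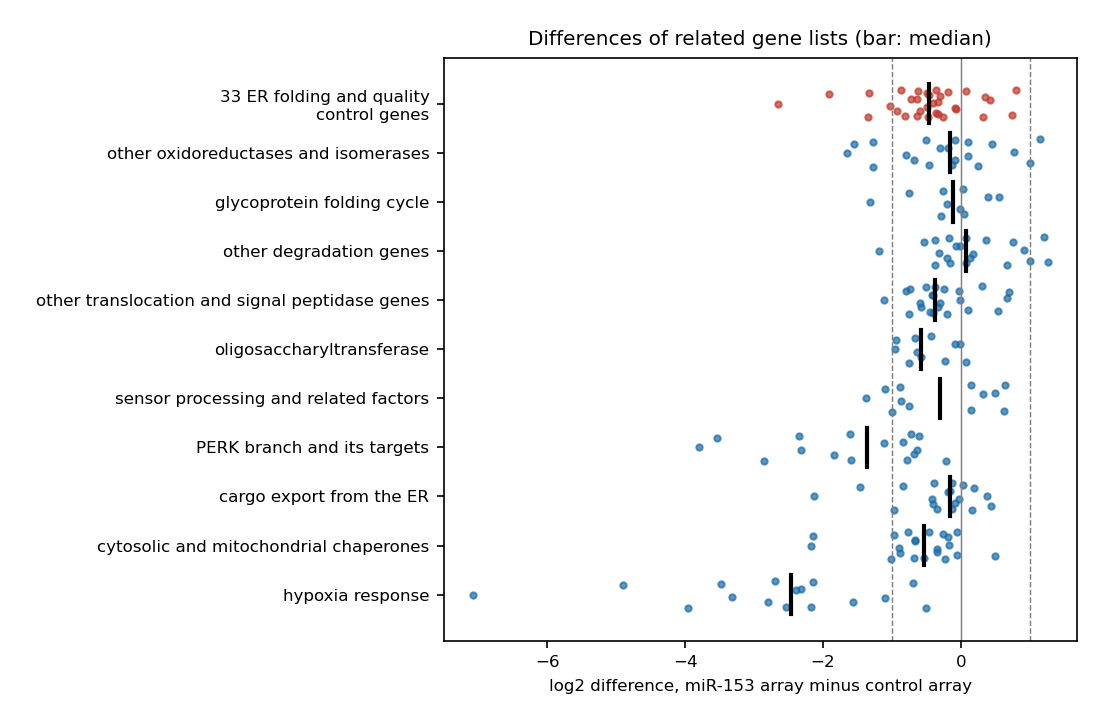
Log2 differences of the 33 ER genes (red) and of 10 related lists (blue), 1 dot per gene measured on both arrays, with the median as a bar and dashed lines at 2-fold. The lowest medians are those of the hypoxia list (-2.46) and the PERK branch (-1.35), and that of other degradation genes is 0.08.

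Genes of the hypoxia response, which Ero1l belongs to by regulation, were the furthest below 0. Of 16 measured, 14 were at least 2-fold lower and none higher, with a median of -2.46, led by Adm (-7.09), Ndrg1 (-4.91), P4ha2 (-3.96) and Hk2 (-3.49). Adm was dim on the miR-153 array, at a level of -4.23, where the lowest level well above background was -4.94. The size of its difference is therefore uncertain. The part of hypoxia in the lower level of Ero1l was not tested. Cell type markers moved as well, to be read beside 9.23% of all gene names at least 2-fold higher and 11.0% lower. All 8 progenitor markers were well above background on both arrays, with a summed signal of 705 (control) and 654 (miR-153) times the 75th percentile. Such a sum adds linear signal, so the brightest genes weigh most, here Fabp7 and Vim, with control levels of 8.51 and 8.10. In the control, Olig1, Kdr and Foxa2 lead the sums of their lists below in the same way. The sums therefore do not measure amounts of a cell type. Of these 8, 5 were above 0 and 2 at least 2-fold higher (Prom1, 1.74, and Sox1, 1.15). Nes (-0.95), Vim (-0.72) and Pax6 (-0.69) lay below 0, none was at least 2-fold lower, and the median was 0.17. The 6 neuron markers were all above 0, and their summed signal was 26.9 and 95.6 times that percentile. The oligodendrocyte lineage markers, with 4 of 7 at least 2-fold higher, summed to 87.1 and 124 times. Of these, Olig2 (-0.57) and Olig1 (-0.38) lay below 0 and 5 above. The 5 astrocyte markers summed to 31.0 and 46.0 times, with 1 at least 2-fold higher.

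Fewer markers of other cells were above background, apart from the mesenchymal list. Of the plasma cell markers, the heavily secreting cells that need Xbp1, Jchain, Tnfrsf17 and Mzb1 failed to pass background on either array, and Sdc1, which other cells also express, was the 1 of 4 that was. Of the endoderm markers Afp, Alb, Apoa1 and Sox17 failed to pass it on either array, Ttr was on the miR-153 array only, and Foxa2, also a gene of the neural floor plate, was on both. The list summed to 4.06 and 10.9 times the 75th percentile. All 6 mesenchymal markers found on the array were above background, 4 of them at least 2-fold higher and a sum of 4.81 and 8.78 times. Of 5 endothelial markers Kdr and Pecam1 were above background, and Cdh5, Tek and Tie1 were not (sums of 16.7 and 10.5), of 5 macrophage markers 1 (1.52 and 1.41), and of 5 pluripotency markers 3 were above it in the control and 4 with miR-153 (4.82 and 2.33). Of these, Esrrb (-2.48) and Dppa5a (-1.44) were at least 2-fold lower, and Nanog stood at -0.11. Pou5f1, above background with miR-153 only, had levels of -4.18 (control) and -4.47 (miR-153), so that call is not a gain. The part of these cell types in the differences of the ER genes was not tested.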

How the data were processed

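Total RNA of 2 samples was labelled with cyanine-3 and hybridised to 1-colour Agilent arrays, per the labels' protocols. The authors deposited scanner intensities. The submitters' processing notes name Agilent Feature Extraction (version 10.7.3.1). Its processed signal is, per the file headers, an intensity after background subtraction and is linear. The series table held the same intensities divided by 1 constant per array (381 and 485), as tested against the scanner files. The table was thus linear, without centring or inversion (column medians 0.0662 and 0.0614), and its columns of other samples numbered 0. Probe positions are those of the file headers (mm9), and promoters and microRNAs are on GRCm38.p6. No position was converted.

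Each level was the log2 processed signal after subtraction of its array's 75th percentile over non-control spots. Spots flagged as outliers on either array (229) were left out, repeat spots were averaged, and 55674 probes remained. A probe counted as well above background when most of its spots did. The 2-fold rule is a rule of size and not a test. Genes of the lists were matched by the name in the file or a RefSeq synonym, which found 175 of 176. All 33 ER genes were named, and of each list up to 4 of the genes past 2-fold with the largest differences. The 33 genes and the lists were chosen with earlier results of these data known. Steps were tested on simulated data. The number of arrays limits the precision. Alternatives were normexp with an offset of 50 (R 4.3.3, limma 3.58.1), quantile normalization, spike-in scaling, the mean of a gene's probes, no filter on dim probes, flagged spots kept, the series table, a 1.5-fold rule and, chosen after seeing the data, lowess (statsmodels 0.14.6, span 0.3). Protein sequences, planned as a comparison of the ends of the proteins, were not used here.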

Additional observations from a re-analysis of the deposited data

How the results depend on the processing

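No ER gene past 2-fold changed direction under any of the 8 alternatives other than the 1.5-fold rule. Several could not change these genes. None of their probes was flagged or filtered as dim, and the series table held the same intensities divided by a constant per array. Each of these genes had 1 probe, so the mean of probes left it unchanged. In each alternative, 5 or 4 genes were at least 2-fold lower. The 4 came from normexp and from spike-in scaling, where Pdia5 fell short. Spike-in scaling added 0.24 to every difference, moved the median of all gene names to 0.14 and that of the 33 genes to -0.21, and put 1 gene, Ero1lb, at least 2-fold higher. There 72.7% of the 33 and 42.2% of all names lay below 0, and of all names 2840 were at least 2-fold higher and 1532 lower, against 1886 and 2258 in the main setting. The median of the 33 ranged from -0.45 to -0.21, and quantile normalization gave -0.29. Spike-in scaling also turned the medians of other oxidoreductases (0.09), the glycoprotein folding cycle (0.14) and cargo export (0.09). Signs turned for Hyou1 (0.18), Xbp1 and Sec61a1 under spike-in scaling, and for Sec61a1 under quantile normalization and lowess, all of them genes within the software error. With a 1.5-fold rule, 13 of the 33 were lower and 2 higher. Of the 168 measured genes of the other lists, 68 were lower and 13 higher, against 36 and 5 at 2-fold, because a lower line admits more genes. The share of all gene names past 1.5-fold was not counted, so the 13 of 33 cannot be set against it. No filter on dim probes left all 33 as they were, with 4359 of all 36400 names lower and 3599 higher, and normexp gave 1528 lower and 1199 higher. No paired analysis was possible because each group has 1 array. Among the 33 ER genes, signal over background limits Derl3 most.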
